A study of Sinonovacula constricta with 9 samples.

Results

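A set of 168 transcripts of the razor clam Sinonovacula constricta stood higher at low salinity than at either other salinity, while their levels at high salinity stayed within 1.5-fold of the control. They are unigenes, the assembled transcript sequences to which the study's reads were assigned. Of 246672 unigenes listed, 15060 passed limits on abundance (a mean of at least 5 FPKM over the 9 libraries, at least 300 counts in all, and not among the 100 with the most counts). FPKM is a fragment count scaled by unigene length and library size, so levels of different unigenes can be set side by side. At a very short length, few counts give a high FPKM. The 168 members were chosen by measured values: all 3 libraries at 5 psu above the other 6 (true of 7.46% of the unigenes past the abundance limits), a ratio of group mean FPKM (each + 0.1) of 5 over 15 psu of at least 2, and a ratio of 25 over 15 psu between 1/1.5 and 1.5. They made up 1.12% of the unigenes past the abundance limits. Their rise at 5 psu and the absence of a large difference at 25 psu are therefore how they were found. Tests on the same libraries are given below as a description only.

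The libraries came from whole juveniles on day 15 after fertilization, kept for 6 h at 5 psu (low), 15 psu (the control, called optimal by the submitters) or 25 psu (high), with 3 libraries per salinity. Salinity is in practical salinity units (psu). Total estimated counts ran from 15897903 to 18427234 per library. The labels name no separate cultures, so spreads and p-values cover only the differences between these libraries, which may be technical. RNA of the whole animal was used, so more cells of a type and more RNA per cell cannot be told apart.

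Bivalves do not hold their body fluid at a fixed salt content, so water enters their cells when the surrounding salinity drops. Their cells are known to regain volume by releasing ions and small organic solutes, such as free amino acids, taurine and betaine, and membrane channels and transporters carry these across. Which members belong to such processes is not given here, because the files do not pair the identifiers with gene names. Members are therefore described by their levels, their rank and their features, and only 2 identifiers are printed.

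Together the members took a larger share of the reads at 5 psu. In the 3 libraries at 5 psu they held 0.847%, 0.878% and 0.892% of all counts. At 15 psu they held 0.271%, 0.269% and 0.272%, and at 25 psu 0.245%, 0.243% and 0.247%. The 3 salinities did not overlap, and the share at 25 psu lay slightly below the control, a difference in the summed value that the limit on each member still allows. The median member stood at 18.6, 19.8 and 18.9 FPKM at 5 psu, at 6.395, 5.83 and 6.24 FPKM at 15 psu, and at 5.945, 6.06 and 6.08 FPKM at 25 psu. Over all 15060 unigenes past the abundance limits the median level per library ran from 9.86 to 10.89 FPKM with no such step.

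**Figure D1:**
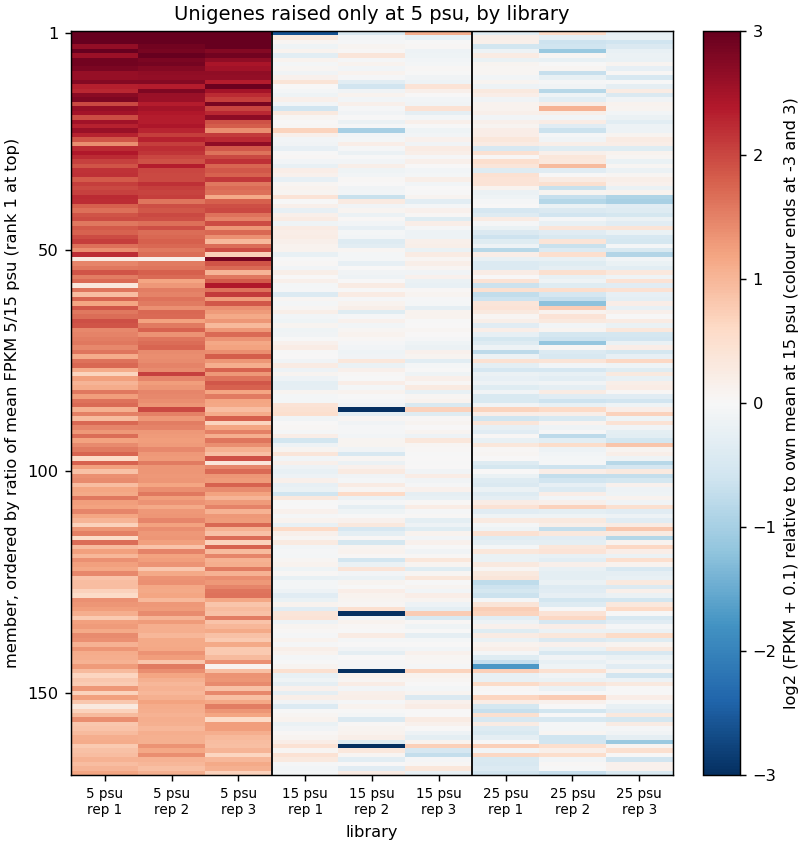
Each line is 1 of the 168 members, ordered by its ratio of 5 over 15 psu, and each column is a library; colour gives log2 (FPKM + 0.1) relative to the member's own mean at 15 psu. The 3 columns at 5 psu are mostly red, with a few members near white in 1 or 2 of them, and the columns at 25 psu are close to white. Dark blue marks 4 members listed at 0 in control replicate 2 and the first member, listed at 0 in control replicate 1.

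Most members differed moderately. The ratio of 5 over 15 psu had a median of 2.66 and an interquartile range of 2.29 to 3.52. It was under 3 for 109 members, from 3 to under 4 for 27, from 4 to under 8 for 28, and at least 8 for 4. The median ratio over all unigenes past the abundance limits was 0.979. The lowest library at 5 psu stood above the highest of the other 6 by a median factor of 1.83, by at least 1.1-fold for 161 members, by at least 2-fold for 68 and by at least 3-fold for 26. The narrowest gap was 1.02-fold.

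The threshold of 2 did not fall in a gap. The 2 members just above it had ratios of 2.001 and 2.002, and the 2 unigenes just below it that met every other condition had ratios of 1.980 and 1.979. Of 234 unigenes that met the conditions on separation and on the ratio of 5 over 15 psu, 36 were left out because 25 psu was at least 1.5-fold above the control and 30 because it was as far below it. The member nearest the upper limit had a ratio of 25 over 15 psu of 1.495 and the nearest unigene outside it 1.512; at the lower limit the values were 0.6675 inside and 0.6659 outside. A further 32 unigenes met both ratios but overlapped in at least 1 library.

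**Figure D2:**
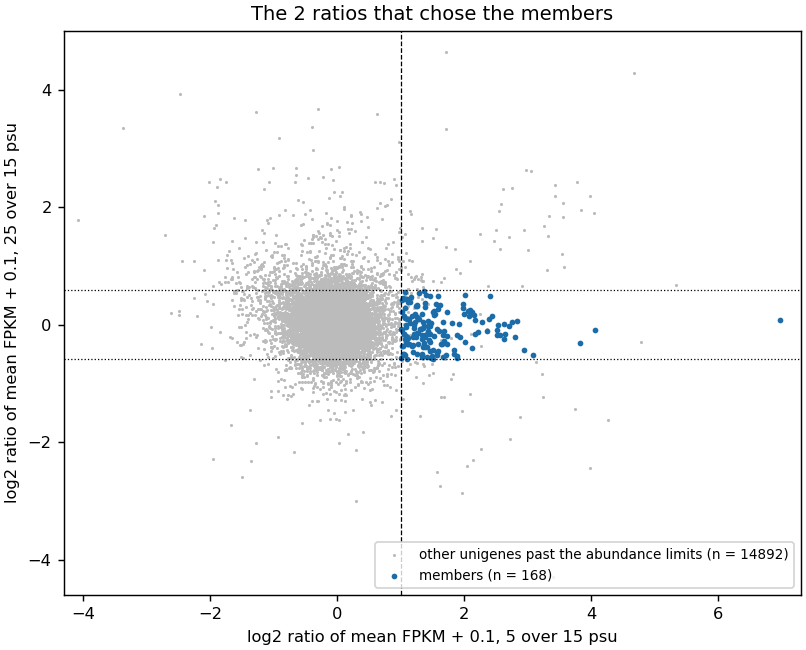
Each point is a unigene past the abundance limits, by its log2 ratio of mean FPKM + 0.1 at 5 over 15 psu (x) and at 25 over 15 psu (y); dashed and dotted lines mark the limits of 2-fold and 1.5-fold, and 19 unigenes beyond the axes are not drawn. The 168 members (blue) lie densest against the 2-fold limit, with 1 far to the right.

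Cluster-8005.9267 had the largest ratio, 126, and was close to absent away from low salinity. It stood at 47.60, 89.94 and 92.91 FPKM at 5 psu, at 0, 0.34 and 1.19 FPKM at 15 psu, and at 0.39, 0.83 and 0.41 FPKM at 25 psu. The libraries at 5 psu held 624 counts and those at the other salinities 4 and 4 counts, so the size of the ratio rests on very few reads. Its log2 fold change of 5 over 15 psu was 7.17 (SE 0.51, edgeR adjusted p = 9.68e-05; 0.170 in limma-voom). It was the only member with a mean under 1 FPKM in the control.

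The next 7 by ratio were expressed in the control at 1.54 to 92.4 FPKM and had ratios of 6.78 to 16.6. The second stood at 31.74, 29.36 and 20.17 FPKM at 5 psu, against 1.89, 1.44 and 1.28 FPKM at 15 psu and a mean of 1.44 ± 0.273 FPKM at 25 psu (SD, n = 3). The third stood at 34.34, 34.61 and 32.20 FPKM at 5 psu, against 2.38, 2.22 and 2.27 FPKM at 15 psu and 2.56, 1.45 and 1.47 FPKM at 25 psu. For both, every library at 5 psu was more than 10 times the highest of the other 6. The fourth, with a ratio of 8.51, was more uneven at low salinity, at 29.45, 35.73 and 56.52 FPKM. It lay near the lower limit at high salinity, with 3.18, 3.08 and 3.42 FPKM at 25 psu against 4.28, 4.96 and 4.80 FPKM at 15 psu, where the groups did not overlap.

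**Figure D3:**
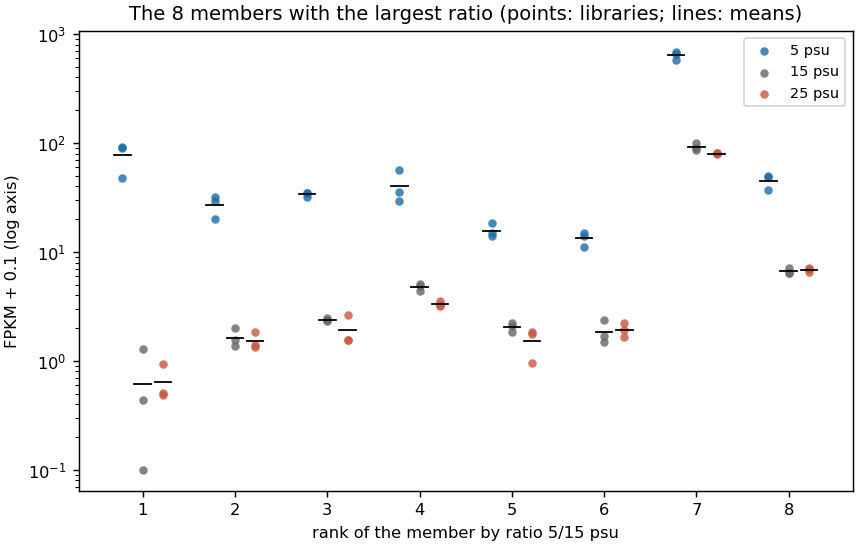
FPKM + 0.1 on a log axis for the 8 members with the largest ratio of 5 over 15 psu; points are libraries, black lines group means, and colours the salinities (n = 3 each). In all 8 the 3 points at 5 psu lie clear of the rest. Points at 15 and 25 psu lie nearer to each other, but in the first member they spread from 0 to 1.19 FPKM. In the fourth and seventh members the points at 15 psu do not overlap those at 25 psu.

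Cluster-8005.114705 was the most abundant member at 5 psu and the seventh by ratio (6.94). It stood at 683.64, 659.42 and 581.99 FPKM at 5 psu, at 100.18, 90.01 and 87.03 FPKM at 15 psu, and at 80.20, 78.81 and 80.26 FPKM at 25 psu. The 3 libraries at 5 psu lay more than 5-fold above the other 6, and those at 25 psu lay just below the control. Its log2 fold change of 5 over 15 psu was 2.83 (SE 0.12, edgeR adjusted p = 7.97e-06), on 98038 counts in all. It held 15.5 to 19.1% of the members' counts at 5 psu and 7.58 to 8.80% in the other libraries. The 25 over 15 psu change was -0.18 (SE 0.11, edgeR adjusted p = 0.530).

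The other abundant members had high levels in the control and smaller ratios. The second at 5 psu, also the highest of all members in the control, stood at 377.67, 367.25 and 381.79 FPKM at 5 psu, at 175.85, 171.17 and 170.87 FPKM at 15 psu and at 135.13, 152.70 and 153.60 FPKM at 25 psu. Its ratio of 2.17 was thus low in the list, with very little spread at 5 psu (SD 7.49 FPKM, n = 3). The third stood at 308.95, 327.23 and 357.00 FPKM at 5 psu, at 117.17, 143.36 and 131.56 FPKM at 15 psu and at 90.75, 85.32 and 92.01 FPKM at 25 psu. In both, the salinities were ordered with no overlap, from 25 psu lowest to 5 psu highest. Ranks 4 to 8 at 5 psu had means of 176.9 to 238.6 FPKM and ratios of 2.68 to 5.43. Rank by FPKM is not rank by reads. Rank 4 at 5 psu had 1147 counts in all at an implied length of 61 nucleotides. Rank 5 had 33107 counts at 1992 nucleotides. Implied lengths of members ran from 49 to 8757 nucleotides. In all, 11 members had a mean of at least 100 FPKM at 5 psu, 15 of 50 to 100, 56 of 20 to 50, 68 of 10 to 20 and 18 under 10. Across the 168 members, which are not independent replicates, the ratio and the control level had a Spearman rho of -0.32, and both measures hold the control mean.

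The count test, run over all 71915 unigenes with enough reads, called most members at low salinity. All 168 were tested, and 144 were called higher at 5 than at 15 psu (quasi-likelihood test of edgeR, p adjusted by Benjamini-Hochberg under 0.05), against a background of 1.26% of all unigenes tested. Their median log2 fold change was 1.44, beside 0.00 (-0.0023) over all unigenes tested, and the 168 estimates ran from 0.24 to 7.17. Since the rule used these libraries, nothing is read from that share. Calls were made for 89 of 109 members with a ratio under 3, 24 of 27 with 3 to 4 and 31 of 32 with 4 or more. The 24 members not called had fewer reads, with a median of 585 counts over the 9 libraries against 1905. They also had wider control libraries, with a median coefficient of variation of 27.5% against 10.3%. At 5 psu it was 26.6% against 16.4%, and their median ratio of 5 over 15 psu was 2.27 against 2.75. Among the 24 are the 4 members, described below, that were listed at 0 in control replicate 2. Against 25 psu, 158 members were called higher at 5 psu (background 4.63%), and 142 were called in both comparisons, which share the libraries at 5 psu. The share of all unigenes called in both was not counted, so nothing is read from the 142.

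At high salinity the members lay within 1.5-fold of the control, as the rule required, with ratios on both sides of 1. The ratio of 25 over 15 psu had a median of 0.927 and ran from 0.6675 to 1.495, with 102 members below 1. All 3 libraries at 25 psu lay below all 3 controls in 43 members (background 15.8% of the unigenes past the abundance limits) and above them in 15 (background 21%), while 110 overlapped. As shares of the 168 members these were 25.6% and 8.93%; since the rule limited the ratio of 25 over 15 psu, nothing is read from them. In the count test 3 members were called lower at 25 than at 15 psu (background 0.679%) and 1 higher (background 1.67%). Their log2 fold changes were -0.54, -0.53, -0.33 and 0.53 (edgeR adjusted p = 0.0250, 0.00770, 0.0446 and 0.00756). The rule limited this ratio, so nothing about the members as a set is read from the 4 calls. With a covariate for each library's length offset, 0 members were called in edgeR, while the 4 log2 fold changes were -0.60, -0.54, -0.33 and 0.54 and their SE rose from 0.0715 to 0.102 without it to 0.108 to 0.152 with it. The offset itself separated the salinities compared, at -6.33 to -4.43 nucleotides at 25 psu and -2.51 to 11.4 at 15 psu, so it and the salinity cannot be fully told apart in that fit. Without the covariate, 27 members had an unadjusted edgeR p under 0.05. The share over all unigenes tested was not counted and the rule limited this ratio, so nothing is read from the 27.

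The member called higher at 25 psu stood at 22.18, 22.76 and 21.82 FPKM there, at 15.52, 15.77 and 16.37 FPKM at 15 psu, and at 48.68, 45.97 and 48.96 FPKM at 5 psu. All 3 salinities were separate, with the control lowest, so this unigene was higher at both extremes and stayed in the list because its ratio of 25 over 15 psu was 1.398. The member with the smallest adjusted p among those called lower was the third most abundant one described above.

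The order of the replicates within a salinity was not itself a condition of the rule. The rule used the value of every library, so order and spread are not independent of the choice. At 5 psu, replicate 1 was highest in 63 members, replicate 2 in 46 and replicate 3 in 59, and the lowest was replicate 1 in 65, replicate 2 in 20 and replicate 3 in 83. Replicates 1, 2 and 3 were highest in 37.5%, 27.4% and 35.1% of members, beside 29.2%, 28.0% and 42.7% of all unigenes past the limits. Among all unigenes past the abundance limits, replicate 2 was also least often the lowest (15.7%, against 11.9% of members), but replicate 1 was more often the lowest there (47.2%) than replicate 3 (37.1%). Replicate 2 lay in the middle in most members, with replicate 1 highest in 55 of these and replicate 3 highest in 47. These are differences between libraries of 1 group, with no order among them. Replicate 3 was at least 1.5-fold above replicate 1 in 30 members (17.9%, beside 16.4% of all) and as far below it in 23 (13.7%, beside 7.54%). The median coefficient of variation of members was 17.1% at 5 psu, 11.4% at 15 psu and 12.9% at 25 psu. Over all unigenes past the limits the same medians were 14.5%, 9.66% and 9.55%.

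**Figure D4:**
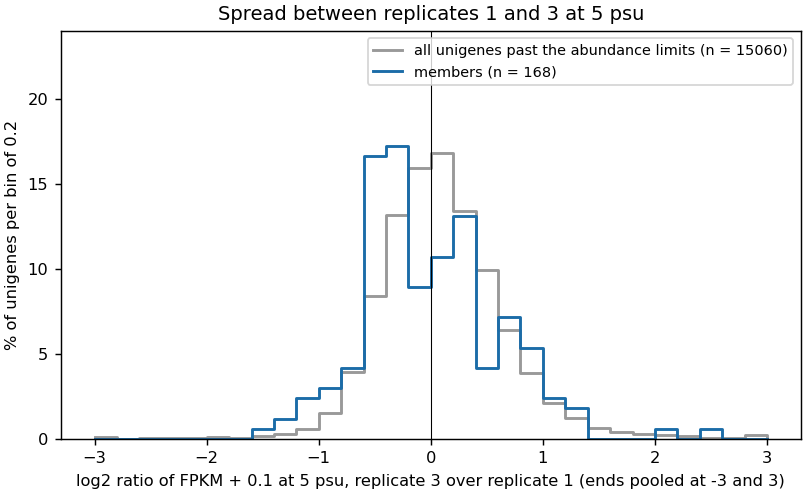
Share of unigenes by the log2 ratio of FPKM + 0.1 in replicate 3 over replicate 1 at 5 psu, for the 168 members (blue) and for all 15060 unigenes past the abundance limits (grey). The members lie on both sides of equality, 91 below and 77 above, with 23 at or under a ratio of 1/1.5. The median ratio of FPKM was 0.920 for members and 1.05 for all unigenes past the limits.

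Members on either side of equality had different median implied lengths, a difference that was not tested. The same split was not made for all unigenes past the abundance limits, so it is not read as particular to the members. The effective length, the count divided by FPKM and library total, had a median of 1320 nucleotides for the 77 members higher in replicate 3 than in replicate 1 and of 739 nucleotides for the 91 that were lower. Their median ratios of 5 over 15 psu were 2.55 and 2.76. Each library's own offset in effective length was 6.27 nucleotides in replicate 3 and 1.64 in replicate 1; its part in this split was not tested.

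Shorter unigenes took a larger share of the members than of the rest. Their median effective length was 1001 nucleotides (interquartile range 423 to 1987), beside 1113 (556 to 2054) for all unigenes past the abundance limits, and 31.0% were under 500 nucleotides beside 21.4%. The mirrored rules gave 142 unigenes lowered only at 5 psu, with a median of 690 nucleotides, 131 raised only at 25 psu, with 1177, and 48 lowered only at 25 psu, with 769. These differences between lists were not tested. All 168 members carried identifiers of 1 assembly cluster, as did 99.9% of the unigenes past the limits. Counts were not whole in at least 1 library for 99 members (58.9%, beside 64.6%), as estimates are when reads fit more than 1 sequence, so single values of these are less certain.

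A minority of members stood close to each other in the numbering of that cluster. The files do not say what the second number of an identifier means, so closeness is one of numbers only. Another member lay within 2 numbers of 31 members (18.5%), while a member lay within 2 numbers of 0.834% of the other unigenes past the limits. These 31 formed 11 pairs and 3 runs of 3, so the 168 members are 151 separate groups when each run is counted once. The lists from the mirrored rules also had such neighbours, for 11.3% of unigenes lowered only at 5 psu, 25.2% of those raised only at 25 psu and 8.33% of the 48 lowered only at 25 psu. Of neighbouring unigenes outside the list, the 124 within 2 numbers had a median ratio of 5 over 15 psu of 0.974, and 18 of them (14.5%, beside 4.80% of all) reached 1.5.

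The levels within runs are shown by 2 pairs, chosen after their values were seen. In a pair with ratios of 6.26 and 6.21 one stood at 15.13, 15.83 and 15.78 FPKM at 5 psu, against 2.22, 2.60 and 2.39 FPKM at 15 psu and 2.49, 1.45 and 2.47 FPKM at 25 psu. The other stood at 24.02, 24.31 and 24.30 FPKM at 5 psu, against 4.16, 3.75 and 3.53 FPKM at 15 psu and 3.62, 3.28 and 2.71 FPKM at 25 psu. Both were almost level between the replicates at 5 psu, but their replicates at 15 and 25 psu did not run in parallel. The one with a ratio of 6.26 held only 12, 15 and 12 counts at 15 psu and 13, 7 and 12 at 25 psu. Nothing is therefore read from the order of the replicates there. Another pair, with ratios of 6.78 and 5.73, fell together in replicate 3 at 5 psu, at 49.73, 48.90 and 36.60 FPKM in one and 33.73, 30.96 and 24.44 FPKM in the other. Of 17 neighbouring pairs, 13 lay on the same side in replicate 3 against replicate 1 (76.5%), beside 50% of all pairs of members. Whether neighbours share sequence or reads was not tested, so they are not counted as independent.

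A single library stood apart in 5 members. Of these, 4 were listed at 0 in control replicate 2 and nowhere else, and they were singled out after their values were seen. The one with most reads stood at 12.50, 18.52 and 13.56 FPKM at 5 psu, at 9.79, 0 and 11.78 FPKM at 15 psu and at 11.81, 10.20 and 7.63 FPKM at 25 psu. Where control replicate 2 held 0 counts, replicates 1 and 3 held 429 and 500. Without that library the 4 ratios of 5 over 15 psu, 2.05 to 2.64, became 1.37, 1.43, 1.48 and 1.76, and all 4 left the list. They met the rule in only 4 or 5 of the 9 repeats that left out 1 library, as did some members with no 0 in any library. The 0 entered every repeat that kept control replicate 2, so the other losses of these 4 are not separate from that library.

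These 4 also moved together elsewhere: each was highest in replicate 2 at 5 psu, at 1.26 to 1.88 times replicate 1, beside a median of 1.03 for all members. Counts of the 2 with the most reads kept a ratio of 1.53 to 1.77 in the 8 other libraries, at implied lengths of 2585 and 1522 nucleotides. Among all unigenes past the limits, 39 were listed at 0 in control replicate 2 only, against 0 to 12 for each other library. The cause was not tested.

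The fifth had an FPKM that its counts did not follow. It was listed at 5.61, 5.19 and 34.09 FPKM at 5 psu, at 4.62, 4.50 and 4.89 FPKM at 15 psu, and at 3.96, 3.97 and 4.38 FPKM at 25 psu. Its counts were 349, 335 and 375 at 5 psu and 301, 320 and 309 at 15 psu. The implied length was 608 nucleotides in replicate 3 at 5 psu and 3839 to 3859 in the other 8 libraries, so the high FPKM stood beside a shorter implied length and a count close to those of replicates 1 and 2. Its log2 fold change in counts was 0.24 (SE 0.11, edgeR adjusted p = 0.346), and without that library its FPKM ratio was 1.15. For the other 167 members the ratio of 5 over 15 psu in FPKM and in counts per library total differed by less than 10%, and 164 of the 168 were at least 2-fold higher in counts.

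**Figure D5:**
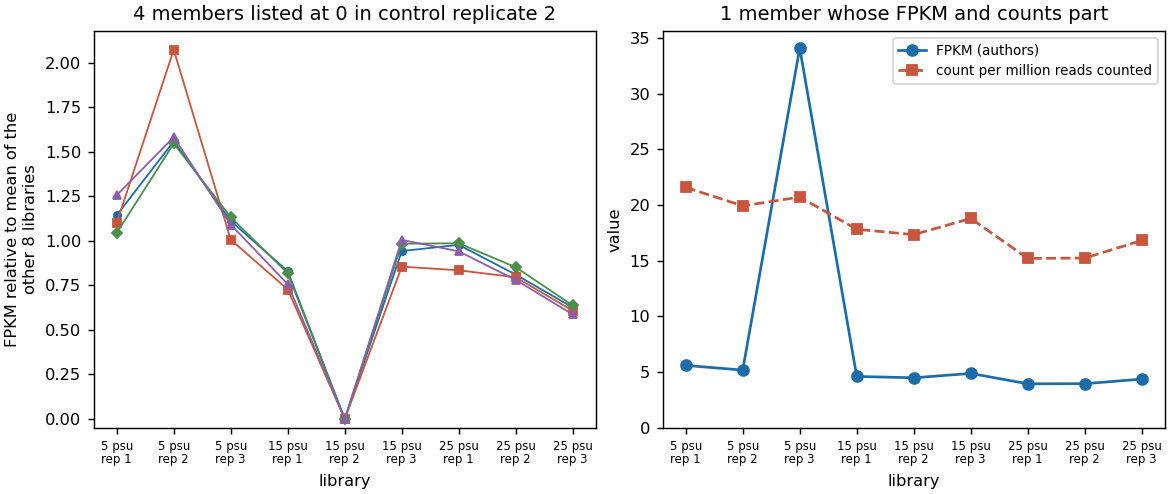
Left: FPKM of the 4 members listed at 0 in control replicate 2, each relative to its mean in the other 8 libraries; right: FPKM and library-scaled counts (CPM) of the member whose FPKM and counts part. On the left the 4 lines run together, peak in replicate 2 at 5 psu and drop to 0 in 1 control; on the right FPKM jumps to 34.09 in replicate 3 at 5 psu while the counts do not.

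Of the 168 members, 103 met the rule again in each of the 9 repeats that left out 1 library, 31 failed in 1 repeat and 34 in 2 or more. Leaving out a library cannot undo the separation at 5 psu, so a member could fail only on the ratios or the abundance limits. The repeats reuse the libraries that chose the members and are a description only. Losses were largest without replicate 3 at 5 psu or control replicate 3 (21 members each) and smallest without replicate 2 at 25 psu (6 members). The 103 had a median ratio of 5 over 15 psu of 2.88. The largest-ratio member failed in 1 repeat, and Cluster-8005.114705 in none.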

How the data were processed

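RNA sequencing of whole juveniles was analysed in 9 libraries, 3 for each salinity. Per the file headers, each unigene has 2 values per library deposited by the authors, an expected count of reads and FPKM. The submitters' processing notes name RSEM and Bowtie2, with no version. How unigenes were assembled and clustered is not given in the sources used here. FPKM divides by a unigene's effective length, so it also moves when the estimated length changes between libraries.

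The rule on FPKM and counts was applied to all unigenes. The members and lists were chosen with earlier results of these data known. At most 2 identifiers are printed: the members with the largest ratio and with the highest mean at 5 psu. Other members are described by rank.

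Counts were rounded to whole numbers, filtered (edgeR's filterByExpr, count minimum 10), scaled by TMM and tested with edgeR's quasi-likelihood test (edgeR 4.0.16, R 4.3.3) in 1 fit of all 9 libraries, with Benjamini-Hochberg adjustment over all 71915 unigenes. The procedure was tested on simulated data. SE was taken from the F statistic, as log2 fold change over its root. Effective length is the length at which count and library total give the deposited FPKM. A count was called not whole when over 0.005 from a whole number. Alternatives used DESeq2 1.42.0, limma 3.58.1, other scalings, filters and limits, a replicate block and leaving out each library. Within a salinity, pairs of libraries had a chi-square of 4.25 to 18.6 for each degree of freedom, above sampling noise.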

Additional observations from a re-analysis of the deposited data

How the results depend on the processing

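The number of members found by the rule was 168. It was 337 with a ratio of at least 1.5 and 59 with at least 3, 104 with 25/15 psu within 5/4-fold, and 350 and 90 with a mean FPKM of at least 1 and 10. With TMM-scaled CPM in place of FPKM it was 180, of which 162 were shared. Members called higher at 5 than at 15 psu numbered 144, and 116 to 161 over 19 alternatives. With the replicate number as a replicate block they were 138. Libraries sharing a number had deviations with correlations of -0.03 to 0.15, and only 1 of 9 exceeded 0.1. In 10 of 18 comparisons a library was best correlated with its own number among the 3 libraries of another group. Whether libraries sharing a number are linked was not tested. No label says that a replicate number marks a shared batch, so no pairing was used. Members called at 25 against 15 psu, 4 in all, became 9 with DESeq2's Wald test, 8 with only the 6 libraries compared, 2 to 7 when 1 library was left out (2 without any 1 library at 15 or 25 psu, 7 without replicate 3 at 5 psu) and 0 with a covariate for the fragment length offset, an alternative chosen after the data were seen, in a fit where that offset differed between the salinities compared. Members called higher at 5 than at 25 psu numbered 125 to 160. The median log2 fold change at 5 psu ran from 1.30 to 1.51. That of Cluster-8005.114705 ran from 2.73 to 2.95, with adjusted p from 4.51e-135 to 0.000238. That of Cluster-8005.9267 ran from 5.70 to 8.40, with adjusted p from 5.2e-17 to 0.170, the last in limma-voom, where it was 7.23.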
